A study of Mus musculus with 17 samples.

Results

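This account covers 10 of the 24594 genes in the deposited gene table, each an autosomal mouse retrogene with an X-linked parent gene. They are Pdha2, Prps1l1, Cetn1, G6pd2, Utp14b, Rbmxl2, Rpl10l, Rpl39l, Cstf2t and Tktl2. The members were taken by name, by no rule on their levels, and their parents are Pdha1, Prps1, Cetn2, G6pdx, Utp14a, Rbmx, Rpl10, Rpl39, Cstf2 and Tktl1. All 10 members and all 10 parents are in the table. For Tktl2 the autosomal gene Tkt was another candidate parent, and its levels are given beside those of Tktl1.

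RNA was measured by RNA sequencing in germ cells sorted from adult mouse testis. There were 3 libraries of each of 5 stages. LZ stands for spermatocytes in leptotene or zygotene and PD for those in pachytene or diplotene. RS are round spermatids, and the elongating spermatids were sorted as early (EES) and late (LES). Every sample is labelled wild type, male, C57BL/6JRj and 3 months old, and no group carried a treatment. Cells of these 5 stages were stained with Hoechst 33342 and SYTO 16 before sorting. A single library of round spermatids titled as juvenile and a single library of elongating spermatids titled as Prm1-EGFP sorted, both stained with Hoechst 33342 alone, entered no comparison. The labels do not say whether the replicates came from separate animals, so p-values measure only the spread between these libraries, which may be technical.

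A retrogene arises when a spliced messenger RNA is copied back into the genome, so it usually lacks the introns of its parent. In male meiosis the X chromosome is transcriptionally shut down during pachytene, a process called meiotic sex chromosome inactivation, and part of this repression lasts into round spermatids. Many genes that every cell needs lie on the X chromosome and have an autosomal retrogene that is active in the testis. The members cover energy metabolism (Pdha2, G6pd2, Prps1l1, Tktl2), the centriole (Cetn1), ribosome assembly and structure (Utp14b, Rpl10l, Rpl39l) and RNA processing (Rbmxl2, Cstf2t).

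The retrocopy structure was visible in the reference. Each of the 10 members has 1 coding exon in the gene annotation (GENCODE M21, genome build GRCm38), and the longest coding model of each parent has 3 to 15. Rpl39l, which encodes a large-subunit ribosomal protein, and its parent Rpl39 are shown because their coding sequences are the shortest and align without a gap. The coding exon of Rpl39l lies at chr16:10174310-10174462 on the plus strand. The 3 coding exons of Rpl39 span chrX:37082704-37085127 on the minus strand. Capitals mark the 23 of 153 aligned bases that differ, and the stop codon is left out.
Rpl39l: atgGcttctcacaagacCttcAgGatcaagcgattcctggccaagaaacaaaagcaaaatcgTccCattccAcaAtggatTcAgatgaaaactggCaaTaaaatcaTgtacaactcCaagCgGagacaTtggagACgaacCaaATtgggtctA
Rpl39: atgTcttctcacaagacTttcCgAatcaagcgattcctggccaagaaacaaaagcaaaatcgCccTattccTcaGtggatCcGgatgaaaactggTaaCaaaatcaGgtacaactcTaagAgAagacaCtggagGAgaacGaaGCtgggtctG
Of the 23 differences, 16 were at the third position of a codon. Counted from the first base of the coding sequence and written from parent to retrogene, the first 2 were T4G and T18C and the last 2 were C145T and G153A.

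Identity of the aligned coding bases ranged from 68.1% for Rbmxl2 and Rbmx to 94.8% for G6pd2 and G6pdx. It was 75.6% for Pdha2, 86.9% for Prps1l1, 78.3% for Cetn1, 77.9% for Utp14b, 84.7% for Rpl10l, 85.0% for Rpl39l and 74.9% for Cstf2t, each against its parent. Tktl2 was closer to Tktl1, at 76.0%, than to Tkt, at 67.1%. Stretches of 50 bases that occur identically in both genes of a pair were found for G6pd2 and G6pdx, where 199 of the 2299 windows of G6pd2 (8.66%) also occur in G6pdx. No such window was found in the other 9 pairs. A read of that length could therefore fit both genes of a pair for G6pd2 and G6pdx alone. Rpl10 shared 33.5% of its 50-base windows with other genes, most of them its processed pseudogenes, and its values are uncertain for that reason.

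In meiosis the members and their parents moved apart. Each parent was lower in PD than in LZ in every library, by 68.3-fold (G6pdx) to 721-fold (Rpl39) in the ratio of stage means, while 5 of the 10 retrogenes rose, 1 fell and 4 were not called, where 25.5% of all tested genes rose and 35.8% fell. In round spermatids 7 parents rose again (23.4% of all tested genes did), each to a mean below its LZ mean. Of the tested X-linked genes 84.6% fell from LZ to PD and 77.8% rose from PD to RS. G6pdx and Tktl1 passed the filter for testing, 1 RPKM in 3 libraries, through LZ alone. For them an RS mean below LZ was thus fixed in advance. The filter also weighs on Utp14a and Rbmx, as given below. After round spermatids 7 retrogenes fell and G6pd2 rose, where 54.9% of all tested genes fell and 15.8% rose. The levels below are RPKM, reads per kilobase of exon scaled to the total reads of the library, so they can be set side by side between genes. Fold changes are the later minus the earlier stage on the log2(RPKM + 0.01) scale, with the standard error (SE) of a limma fit over the 15 libraries, and a gene was called at an adjusted p under 0.05 and a change of at least 1. In bulk samples like these, fewer cells of a type and less RNA per cell cannot be told apart.

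**Figure D1:**
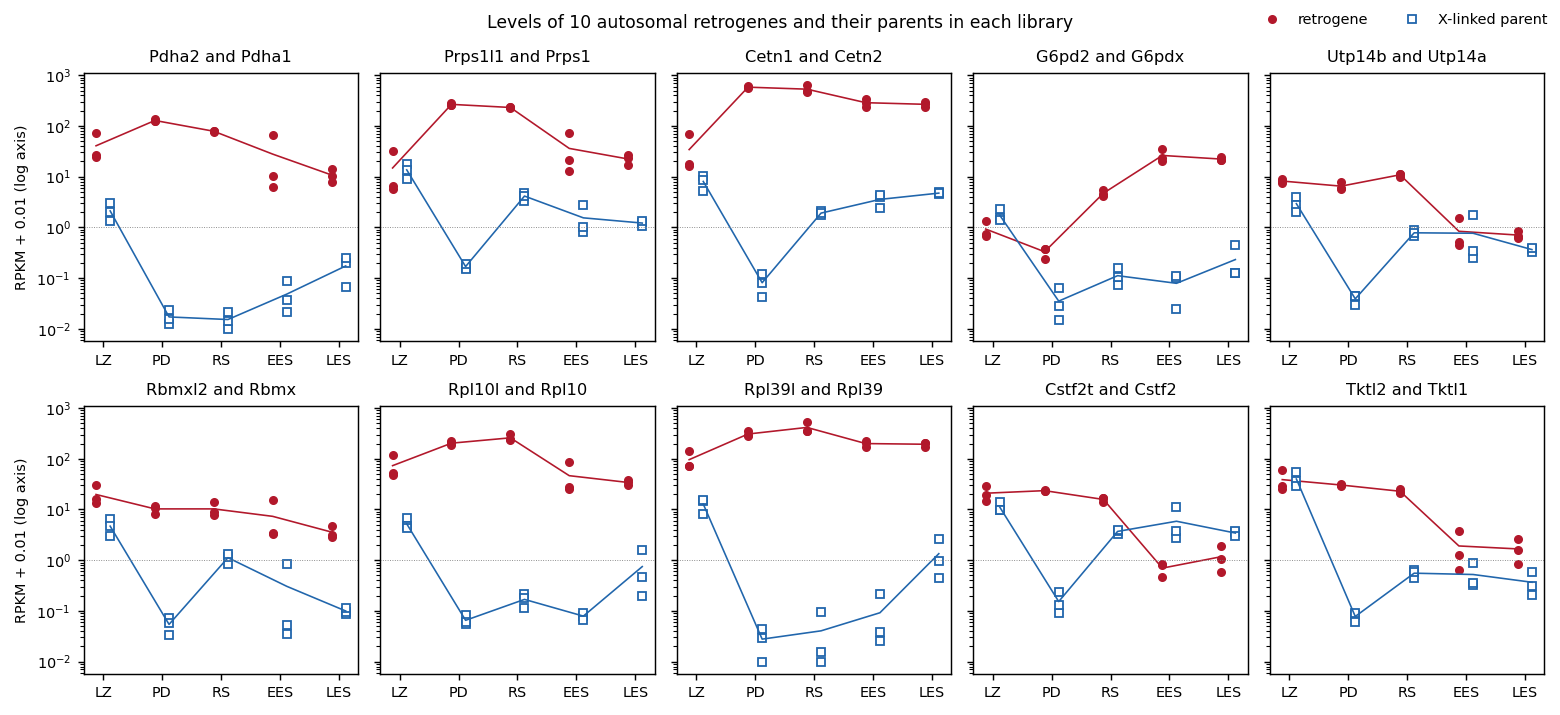
RPKM + 0.01 on a log axis for each retrogene (filled circles) and its X-linked parent (open squares) in the 3 libraries of each of the 5 stages; lines join stage means and the dotted line is 1 RPKM. Every parent drops at PD, G6pd2 is the member with its highest mean in EES, and Cstf2 lies above Cstf2t in all EES and LES libraries.

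The stage labels were checked on their markers. Mean Dmc1, a meiotic recombinase, was 61.6 RPKM in LZ and 0.115 in PD. Piwil1, a piRNA pathway gene of pachytene cells, was 112 RPKM in PD, and Acrv1, an acrosomal protein, was 31.7 RPKM in RS. Tnp1, a transition protein, was 27735 RPKM in EES and 367 in RS. Other markers on these lists were not highest in the stage they were listed for. Ccna1 averaged 112 RPKM in PD and 274 in RS, Adam3 379 in PD and 774 in EES, Mybl1 25.4 in LZ and 27.2 in PD, and Tssk1 53.8 in RS and 105 in EES. Mean Acrv1 was 35.5 RPKM in EES, with 1 library at 95.2. Summed over the 4 PD markers, the PD libraries (565 to 753 RPKM) overlapped those of RS (628 to 849) and EES (716 to 864). Totals were 90553570 to 137849519 reads a library in the 5 stages, of which 48.38% to 87.74% fell in the gene table. A pair of libraries stood apart from their group. LZ replicate 3 had a summed level of 4 PD markers of 157 RPKM, against 54.0 and 46.5 in the other 2, and EES replicate 2 had a summed level of 3 RS markers of 409 RPKM, against 73.7 and 102. LZ libraries also held Sertoli cell markers, at a summed 51.7 to 90.8 RPKM over 11 of 11 genes, led by Cst9 and Clu, against 1.22 to 1.38 in PD. The 5 markers of elongating spermatids summed to 769, 951 and 1284 RPKM in LZ and to 63.5 to 251 in PD, with mean Tnp1 at 268 and 38.9. Spermatogonial markers summed to 34.1 to 47.5 RPKM over 7 of 7 genes in LZ and 2.74 to 2.88 in PD. In LZ Uchl1 and Dmrt1 were the most abundant of them. Gfra1 alone went the other way, with means of 0.116 RPKM in LZ and 0.608 in PD. No gene of these lists was at 0 in all libraries of LZ or PD. Macrophage markers (4 of 4 genes) summed to 1.91 to 2.51 RPKM in LZ, Leydig cell markers (6 of 6) to 4.61 to 6.75, endothelial markers (3 of 3) to 0.175 to 0.211 and myoid markers (3 of 3) to 0.314 to 0.566.

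Pdha2 encodes the testis form of the E1 alpha subunit of pyruvate dehydrogenase, the enzyme complex that feeds pyruvate into the citric acid cycle, and lies at chr3:141210004-141212355 on the minus strand. Its levels were 26.6, 23.9 and 71.6 RPKM in LZ, 137, 123 and 126 in PD, 80.7, 79.9 and 75.5 in RS, 6.36, 66.7 and 10.5 in EES and 10.3, 7.90 and 14.1 in LES. All PD libraries were above all RS libraries, all RS libraries were above LZ, all LZ libraries were above LES, and EES overlapped both LZ and LES. Pdha2 rose from LZ to PD (log2 fold change 1.85 ± 0.66 SE, adjusted p = 0.0246). This call was lost when LZ replicate 1 or 2, or any 1 of the 3 PD replicates, was left out, with changes of 1.56 to 1.88, and the change was 2.35 without LZ replicate 3. At the step to EES, Pdha2 fell (-2.25 ± 0.66, adjusted p = 0.00726), and EES replicate 2, at 66.7 RPKM, lay near the RS libraries.

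Pdha1, the somatic form, had levels of 3.02, 1.97 and 1.32 RPKM in LZ. In PD 10 reads were counted over the 3 libraries together, giving 0.00243, 0.0131 and 0.00585 RPKM, and in RS 8 reads. LZ lay above every other library, and Pdha1 fell from LZ to PD by 6.91 on the log2 scale (SE 0.62, adjusted p = 5.94e-07). Over the 15 libraries Pdha1 reached 1 RPKM in the 3 LZ libraries alone. In EES it had 48 reads and in LES 194, and the rise from RS to EES passed the threshold (1.49 ± 0.62, adjusted p = 0.0418) although the libraries overlapped. That call was lost without EES replicate 1 or 3, without RS replicate 1 or 3 and without PD replicate 3, with values of 0.94 to 1.57. Exons of Pdha1 overlap those of Map3k15 on the opposite strand over 603 bases, and the part of Map3k15 reads in the rise was not tested. Summed Sertoli markers were 2.31 to 2.97 RPKM in RS and 11.6, 4.99 and 15.5 in EES, in the same order as the EES levels of Pdha1 (0.0266, 0.0111 and 0.0774 RPKM), and their part in the rise was not tested. The pair together gave 42.8 ± 26.2 RPKM in LZ (SD, n = 3) and 128 ± 7.36 in PD, and Pdha2 made up 89.8% to 98.2% of it in LZ and at least 99.9% in PD.

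Of 8 tested genes of the pyruvate dehydrogenase complex and its regulators, beside this pair, 2 rose and 3 fell from LZ to PD, shares near the 25.5% and 35.8% of all tested genes. Pdk2, a kinase that inhibits the complex, rose from 1.92 ± 1.02 to 16.7 ± 1.04 RPKM (SD, n = 3; 3.24 ± 0.34 SE, adjusted p = 2.08e-06). Pdhx, the protein that tethers the E3 subunit, rose by 1.38 ± 0.45 (adjusted p = 0.0146). The kinases Pdk1 and Pdk3 fell by 6.20 and 5.75 on the log2 scale. Pdk3 is itself X-linked. From PD to RS 2 rose, a share near the 23.4% of all tested genes. They were Pdk3, by 4.87 ± 0.39, and the phosphatase Pdp1, by 3.28 ± 0.59. From RS to EES 1 rose and 5 fell (all genes 15.8% and 54.9%), with Dlat and Dld, the E2 and E3 subunits, lower by 3.87 and 3.34 on the log2 scale.

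Prps1l1 encodes a testis phosphoribosyl pyrophosphate synthetase, which makes the activated ribose used for nucleotides, and lies at chr12:34984761-34986436 on the plus strand. Its levels were 5.60, 6.51 and 32.4 RPKM in LZ, 282, 257 and 262 in PD, 236, 233 and 226 in RS, 13.2, 73.7 and 21.4 in EES and 22.9, 16.95 and 27.1 in LES. PD and RS libraries were above all others and the LZ, EES and LES libraries overlapped. The rise from LZ to PD was the largest of the 10 members in the fit (4.66 ± 0.63, adjusted p = 2.20e-05), and from RS to EES Prps1l1 fell by 3.07 on the log2 scale (SE 0.63, adjusted p = 0.000628).

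Prps1, the X-linked synthetase, was at 18.1, 13.6 and 9.09 RPKM in LZ and at 0.150, 0.143 and 0.183 in PD. In LZ replicates 1 and 2 it was above Prps1l1, and in LZ replicate 3 below it. It rose in RS to 3.37, 4.85 and 4.18 RPKM (4.61 ± 0.40, adjusted p = 1.10e-06) and fell in EES (-1.64 ± 0.40, adjusted p = 0.0022). Prps1l1 made up 23.6% to 78.1% of the pair in LZ, at least 99.9% in PD and 98.0% to 98.6% in RS.

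G6pd2 encodes a glucose-6-phosphate dehydrogenase, the entry enzyme of the oxidative pentose phosphate pathway, and lies at chr5:61808816-61811163 on the plus strand. It has 1 exon in the annotation, while its locus in the deposited de novo transcriptome held 3 transcripts of 2 to 3 exons. The highest stage mean of G6pd2 was in EES, and those of the other members were in LZ, PD or RS. Its levels were 0.743, 0.652 and 1.36 RPKM in LZ, 0.228, 0.369 and 0.366 in PD, 4.08, 4.60 and 5.47 in RS, 20.3, 34.7 and 23.6 in EES and 21.4, 23.9 and 21.4 in LES. LZ, PD, RS and EES did not overlap with each other, and EES and LES overlapped. G6pd2 was lower in PD than in LZ (-1.44 ± 0.30, adjusted p = 0.000854), a direction that turned to 0.25 under quantile normalization. The summed elongating spermatid markers were also lower in PD than in LZ, as given above, and LZ replicate 3 was the highest LZ library in both. The part of these markers in the LZ level of G6pd2 was not tested. It rose from PD to RS by 3.86 ± 0.30 (adjusted p = 5.39e-07) and from RS to EES by 2.45 ± 0.30 (adjusted p = 1.11e-05). Between its lowest mean, in PD, and its highest, in EES, lay an 81.7-fold ratio. G6pd2 was the 1 member that rose from PD to RS and the 1 member that rose from RS to EES.

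G6pdx was at 2.25, 1.51 and 1.40 RPKM in LZ, all above G6pd2 in the same libraries. It was at 0.0177, 0.0531 and 0.00473 RPKM in PD, from 28 reads, and at 0.0632, 0.146 and 0.0955 in RS. It fell from LZ to PD by 5.84 on the log2 scale (SE 0.69, adjusted p = 6.78e-06) and its 3 LZ libraries alone reached 1 RPKM. The rise to RS (1.85 ± 0.69, adjusted p = 0.0436) was lost without PD replicate 1 or 3 and without RS replicate 2 or 3, with changes of 1.35 to 1.86. G6pd2 and G6pdx together were lowest in PD, at 0.346 ± 0.0905 RPKM (SD, n = 3), against 2.64 ± 0.428 in LZ and 26.3 ± 7.54 in EES. The exons of G6pdx overlap those of Ikbkg on the opposite strand, and whether strand was used in counting is not given in the sources used here.

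Tktl2, a transketolase-like gene of the non-oxidative branch, lies at chr8:66511756-66518335 on the plus strand. It was at 29.7, 25.6 and 61.1 RPKM in LZ, 30.9, 28.7 and 31.5 in PD, 25.2, 21.4 and 22.0 in RS, 0.617, 3.82 and 1.26 in EES and 1.56, 0.832 and 2.59 in LES. LZ and PD overlapped, and all EES and LES libraries were below all earlier ones. The change from LZ to PD was -0.24 ± 0.56 (adjusted p = 0.714), and 0.14 without LZ replicate 3. Between RS and EES Tktl2 fell by 3.98 on the log2 scale (SE 0.56, adjusted p = 3.13e-05).

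Tktl1 had the highest LZ level of the 10 parents, at 55.1, 35.7 and 28.9 RPKM, and was at 0.0734, 0.0793 and 0.0501 in PD. It fell by 8.97 on the log2 scale (SE 0.45, adjusted p = 4.96e-09), rose to 0.431, 0.631 and 0.571 RPKM in RS (2.84 ± 0.45, adjusted p = 0.00015) and was not called later. Tkt, the autosomal transketolase, was under 1 RPKM in all 17 libraries, with stage means of 0.486 in LZ and 0.0916 in EES, and was therefore not tested. Summed over Tktl1 and Tktl2 the level fell from 78.7 ± 15.3 RPKM in LZ to 30.4 ± 1.44 in PD (SD, n = 3), and Tktl2 made up 35.0% to 67.9% of it in LZ and at least 99.7% in PD.

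The rest of the pentose phosphate and phosphoribosyl pyrophosphate genes gave 7 tested of 10, of which 1 rose and 3 fell from LZ to PD, against 25.5% and 35.8% of all genes. Pgls, the lactonase after glucose-6-phosphate dehydrogenase, rose by 1.65 ± 0.31 (adjusted p = 0.000343). Pgd, the next enzyme of that branch, fell from 4.95 ± 0.594 to 0.394 ± 0.0832 RPKM (SD, n = 3), and Taldo1, transaldolase, from 9.15 ± 0.543 to 0.374 ± 0.0789. Both lie on autosomes. From PD to RS 2 fell, Rpia and Prpsap2, where 15.2% of all genes did, and from RS to EES 4 fell, where 54.9% did. None rose in the limma fit at either step, where 23.4% and 15.8% of all genes did. None was higher at an unadjusted p under 0.05 either.

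Cetn1 encodes a centrin, a calcium-binding protein of centrioles and basal bodies, and lies at chr18:9615524-9619478 on the minus strand. It was at 18.1, 16.1 and 68.5 RPKM in LZ, 603, 552 and 594 in PD, 474, 632 and 491 in RS, 234, 346 and 284 in EES and 298, 269.9 and 236 in LES. All libraries after LZ were far above it, PD and RS overlapped, and EES and LES overlapped. Cetn1 rose from LZ to PD by 4.42 ± 0.42 (adjusted p = 9.44e-07). From RS to EES the change of -0.89 ± 0.42 (adjusted p = 0.0667) was not called, although the EES libraries were all below RS. Without EES replicate 2 and LZ replicate 3, the libraries that stood apart, it was -1.03 and was called.

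Cetn2, the X-linked centrin, was at 10.3, 8.61 and 5.24 RPKM in LZ, 0.0331, 0.109 and 0.0708 in PD and 2.09, 1.73 and 1.89 in RS. It fell by 6.70 on the log2 scale from LZ to PD (SE 0.37, adjusted p = 9.43e-09) and rose by 4.68 ± 0.37 to RS (adjusted p = 5.25e-07). In LES it was at 4.92, 4.49 and 4.78 RPKM, above all EES libraries, with Cetn1 at 98.0% to 98.4% of the pair. Among 5 other centrins and centrin partners, Cetn4 rose from LZ to PD (3.19 ± 0.41, adjusted p = 1.36e-05) and Xpc, the DNA repair protein that binds centrin, fell (-1.58 ± 0.25, adjusted p = 7.32e-05). Between RS and EES 4 of the 5 fell, a step at which 54.9% of all tested genes fell, among them Poc5 by 4.49 and Cetn3 by 3.71 on the log2 scale.

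Rpl10l and Rpl39l encode proteins of the large ribosomal subunit. Rpl10l, at chr12:66283379-66284401 on the minus strand, was at 51.4, 47.8 and 120.4 RPKM in LZ, 222, 200.3 and 188 in PD, 302, 242 and 232 in RS, 25.7, 85.6 and 28.0 in EES and 34.4, 30.2 and 37.6 in LES. Every RS library was above every PD library, and PD above LZ. Rpl10l rose from LZ to PD (1.61 ± 0.42, adjusted p = 0.00429) and fell from RS to EES (-2.70 ± 0.42, adjusted p = 7.65e-05).

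Rpl39l, with its gene at chr16:10170226-10174911 and its sequence above, was at 73.3, 71.5 and 143 RPKM in LZ, 351, 290.4 and 282 in PD, 543, 353 and 350.4 in RS, 204, 221 and 173 in EES and 207, 170.0 and 204 in LES. LZ was below all other libraries, and PD and RS overlapped. Rpl39l rose from LZ to PD (1.75 ± 0.28, adjusted p = 8.12e-05). It fell from RS to EES by 1.03 on the log2 scale (SE 0.28, adjusted p = 0.00397), a call lost without EES replicate 3 (-0.93) or RS replicate 1 (-0.83) and a direction that turned to 0.41 under median centring. In LES the means of Cetn1, 268 ± 31.1 RPKM, and Rpl39l, 194 ± 20.5 (SD, n = 3), were the highest of the members.

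The parents Rpl10 and Rpl39 were at 6.71, 4.66 and 4.23 and at 14.9, 15.2 and 8.26 RPKM in LZ. In PD the 3 libraries held 42 reads of Rpl10 and 9 of Rpl39, and in RS 121 and 18. Rpl10 fell from LZ to PD by 6.31 on the log2 scale (SE 0.58) and Rpl39 by 9.04 (SE 0.97, adjusted p = 2.84e-06), the largest fall of the parents in the fit. To RS Rpl10 changed by 1.34 ± 0.58 (adjusted p = 0.0751) and Rpl39 by 0.06 ± 0.97 (adjusted p = 0.968), and neither was called. In LES Rpl10 was at 0.183, 0.451 and 1.58 RPKM and Rpl39 at 0.427, 0.961 and 2.62, all above EES. These increases were 2.73 ± 0.58 (adjusted p = 0.11) and 4.13 ± 0.97 (adjusted p = 0.177). Rps4x, another X-linked ribosomal protein gene, was at 0.570, 2.09 and 6.37 RPKM in the same 3 LES libraries. Summed macrophage markers in them were 1.45, 3.74 and 12.6 RPKM over 4 of 4 genes. Macrophage markers summed to 1.15 to 1.37 RPKM in EES and to 3.87 to 4.29 in RS. Leydig cell markers summed to 5.21, 0.697 and 4.05 RPKM in the 3 LES libraries, over 6 of 6 genes and in another order. The part of these markers in the LES values was not tested.

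Among 83 other cytosolic ribosomal protein genes tested, which include both parents, 10 fell and none rose from LZ to PD in the limma fit, with 15 higher at an unadjusted p under 0.05. Of all tested genes 35.8% fell and 25.5% rose at that step. The 4 X-linked ones all fell, against 6 of 79 autosomal ones, the largest of these falls being Rpl10a (-1.79 ± 0.27) and Rpl22 (-1.75 ± 0.24). In EES, against RS, 3 rose and 22 fell, where 15.8% and 54.9% of all genes did. Rps27a, of the small subunit, fell from 7.65 ± 1.05 to 0.519 ± 0.296 RPKM (SD, n = 3).

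Utp14b encodes a protein of the small subunit processome, which cuts ribosomal RNA precursors, and lies at chr1:78658038-78671512 on the plus strand, inside Acsl3. Some of its exon bases are shared with Acsl3 on the same strand. Its levels were 9.11, 7.43 and 8.04 RPKM in LZ, 5.89, 5.64 and 7.96 in PD, 9.91, 11.2 and 11.5 in RS, 0.440, 1.53 and 0.508 in EES and 0.661, 0.595 and 0.833 in LES. LZ and PD overlapped, RS was above both, and EES and LES were below all. The changes were -0.35 ± 0.37 from LZ to PD (adjusted p = 0.426) and 0.76 ± 0.37 to RS (adjusted p = 0.118), and Utp14b fell by 3.93 on the log2 scale in EES (SE 0.37, adjusted p = 1.22e-06).

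Utp14a was at 3.99, 2.81 and 1.98 RPKM in LZ, 0.0198, 0.0336 and 0.0335 in PD and 0.671, 0.871 and 0.773 in RS. It fell by 6.20 and then rose by 4.34 on the log2 scale (SE 0.56 for both, adjusted p = 6.33e-07 and 2.85e-05). In EES replicate 2 it was at 1.71 RPKM, above Utp14b in that library. Exons of Utp14a overlap those of 9530027J09Rik on the opposite strand over 473 bases, whose part in these levels was not tested. Of the 26 other tested processome genes 12 fell and 1 rose from LZ to PD, 8 fell and 1 rose from PD to RS, and 21 fell from RS to EES. Over all tested genes 35.8%, 15.2% and 54.9% fell at these 3 steps, and 25.5%, 23.4% and 15.8% rose. At that last step none rose in the limma fit or was higher at an unadjusted p under 0.05. Nop56 fell from 11.4 ± 1.29 to 0.660 ± 0.235 RPKM in PD (SD, n = 3), and Nop14 rose at the first 2 steps, by 1.05 ± 0.32 and 1.03 ± 0.32.

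Rbmxl2 encodes hnRNP G-T, a germ cell splicing regulator, and lies at chr7:107209445-107210916 on the plus strand. It was at 13.4, 15.9 and 30.0 RPKM in LZ, 11.8, 10.7 and 8.26 in PD, 14.0, 8.93 and 7.90 in RS, 3.27, 15.3 and 3.38 in EES and 2.92, 3.16 and 4.64 in LES. All LZ libraries were above PD, and PD, RS and EES overlapped. No neighbouring comparison was called for Rbmxl2. The changes were -0.87 ± 0.51 from LZ to PD (adjusted p = 0.149), -0.03 ± 0.51 to RS and -0.85 ± 0.51 to EES (adjusted p = 0.148). Without EES replicate 2 the last was -1.58 and was called.

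Rbmx, the X-linked hnRNP G gene, was at 6.45, 4.62 and 2.97 RPKM in LZ, 0.0231, 0.0623 and 0.0471 in PD, 0.845, 1.17 and 1.32 in RS and 0.0255, 0.817 and 0.0419 in EES. It fell by 6.44, rose by 4.42 and fell by 3.26 on the log2 scale at the 3 steps (SE 0.87 each, adjusted p = 2.03e-05, 0.000885 and 0.00384). Within EES the replicate that stood apart, at 0.817 RPKM, was just below the lowest RS library, at 0.845. Of 9 other hnRNP G relatives and splicing partners, 1 rose and 3 fell from LZ to PD, with Khdrbs3 up by 2.49 ± 0.49 and Hnrnpa1 down by 2.86. The shares over all genes at that step were 25.5% and 35.8%. All 9 fell from RS to EES, where 54.9% of all tested genes fell.

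Cstf2t encodes the testis form of the 64 kDa cleavage stimulation factor, which binds RNA downstream of poly(A) sites, and lies at chr19:31082837-31087069 on the plus strand, within Prkg1 on the opposite strand. It was at 19.5, 14.8 and 28.5 RPKM in LZ, 23.7, 23.9 and 23.0 in PD, 16.6, 16.5 and 14.2 in RS, 0.457, 0.816 and 0.790 in EES and 1.03, 0.578 and 1.87 in LES. LZ and PD overlapped, RS was below PD, and EES and LES were below all. The change from LZ to PD was 0.22 ± 0.38 (adjusted p = 0.618). Between RS and EES Cstf2t fell by 4.54 on the log2 scale (SE 0.38, adjusted p = 4.10e-07), the largest fall of the members at that step.

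Cstf2 was at 13.9, 9.61 and 9.72 RPKM in LZ, 0.0811, 0.120 and 0.227 in PD, 3.32, 3.82 and 3.92 in RS, 2.72, 11.02 and 3.81 in EES and 3.53, 3.69 and 3.04 in LES. It fell by 6.27 to PD (SE 0.45) and rose by 4.71 ± 0.45 to RS (adjusted p = 2.26e-06). In all 6 EES and LES libraries the parent was above the retrogene, and Cstf2t made up 6.90% to 17.2% of the pair in EES, against 78.4% to 83.3% in RS. Of 18 other tested cleavage and polyadenylation genes, 2 rose and 4 fell from LZ to PD, where 25.5% and 35.8% of all genes did. Papolb, a testis poly(A) polymerase, rose from 12.5 ± 7.35 to 108 ± 15.3 RPKM (SD, n = 3), and Cpsf6 fell from 12.9 ± 1.70 to 1.87 ± 0.371. From PD to RS 1 rose, Cpsf4l, by 4.91 ± 0.28, where 23.4% of all genes rose. Cpsf4l rose again to EES by 1.86 ± 0.28, when 12 of the 18 fell, as did 54.9% of all genes.

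Taken by comparison, 5 of 10 retrogenes rose from LZ to PD (Pdha2, Prps1l1, Cetn1, Rpl10l and Rpl39l) where 25.5% of the 13260 tested genes did, and 1 fell (G6pd2) where 35.8% did. Under quantile normalization 2 rose (Prps1l1 and Cetn1) and 2 fell (Rbmxl2 and Tktl2). The median change of the 10 was 0.91, against -0.36 over all tested genes. The 10 parents all fell, with a median of -6.38 and no overlap between stages in any of them. The share of all or of X-linked genes without overlap was not computed. Pdha1, G6pdx and Tktl1 passed the filter of 1 RPKM in 3 libraries through LZ alone, Utp14a, Rpl10 and Rpl39 with 1 library elsewhere and Rbmx with 2, so these 7 had to be lower somewhere else and their count supports nothing beyond the values given for each. Without the filter all 10 fell as well. Among 527 tested X-linked genes 446 (84.6%) fell, with a median of -5.84, and 2 rose. The summed Sertoli and spermatogonial markers were higher in LZ than in PD, as given above. In LZ replicates 1, 2 and 3 the Sertoli markers summed to 59.5, 51.7 and 90.8 RPKM and the spermatogonial markers to 47.5, 41.2 and 34.1. The 10 parents summed to 135, 98.3 and 73.1 RPKM in the same libraries. The part of other cells in the LZ levels of the parents was not tested.

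From PD to RS 1 retrogene rose (G6pd2, background 23.4%) and none fell in the limma fit (background 15.2%), and none was lower at an unadjusted p under 0.05. The median change of the members was -0.09, against 0.02 over all genes. Among the parents 7 rose, all but Pdha1, Rpl10 and Rpl39, with a median over the 10 of 3.59. Of the X-linked genes 410 of 527 (77.8%) rose, with a median of 3.89.

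From RS to EES 1 retrogene rose (G6pd2, background 15.8%) and 7 fell (all but G6pd2, Cetn1 and Rbmxl2, background 54.9%). The median change was -2.48, against -1.42 over all genes, and thus -1.06 relative to it. Of the parents 1 rose, Pdha1, and 2 fell, Prps1 and Rbmx, with a median of -0.40, or 1.02 relative to all genes. Of the 527 tested X-linked genes 151 (28.7%) rose and 156 (29.6%) fell. Their median was -0.08, or 1.35 relative to all genes. Under median centring 5 parents rose and 1 fell, and under quantile normalization 4 rose and 1 fell, with Tktl1 turning from -0.23 to 1.22 and 1.29. None rose with the other deposited table, of genes assembled de novo, with no filter, with a pseudocount of 1 RPKM or with scaling to reads in genes. All genes shifted with the scaling at this step, with medians of 0.02 under median centring, -0.26 under quantile normalization and -1.55 when scaled to reads in genes, and at the LZ to PD step with medians of 0.09, -0.03 and -0.79.

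From EES to LES no member and no parent was called by limma, where 0.00754% of tested genes rose and 0% fell. At an unadjusted p under 0.05 none of the 10 members passed in either direction and 4 parents were higher, of 886 higher and 33 lower genes in all. Over the 5 stages the F test of the same fit called all 10 retrogenes and all 10 parents, where it called 97.2% of genes.

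**Figure D2:**
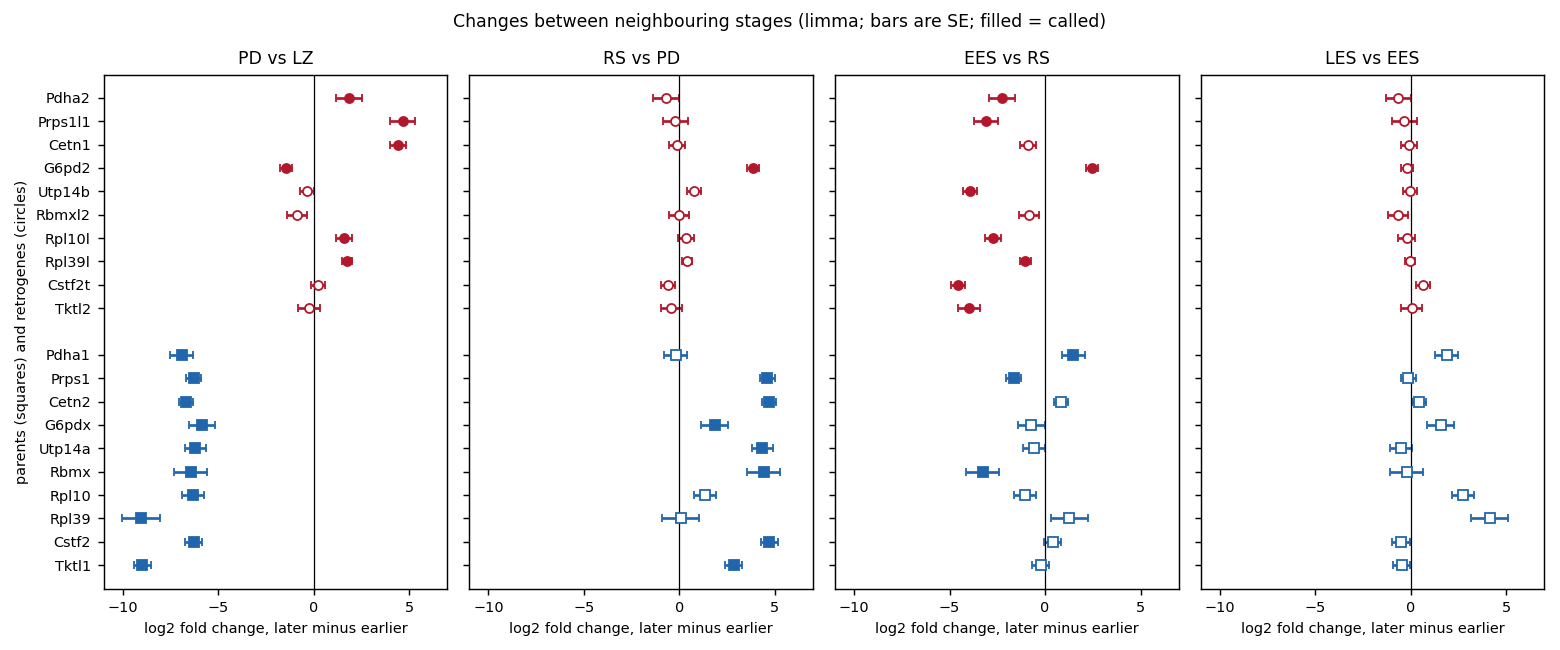
Log2 fold change (later minus earlier stage) of the 10 retrogenes (circles) and 10 parents (squares) in the 4 comparisons of neighbouring stages, with SE bars; filled symbols were called. The parents lie between -5.84 and -9.04 in the first panel, and G6pd2 is the called retrogene on the right side of 0 in the third.

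Without an added constant, the ratio of retrogene to parent within a library does not depend on the library's total. The 0.01 RPKM added here weighs on ratios whose parent lies near it, such as Pdha1 and Rpl39, with PD means of 0.00714 and 0.0177 RPKM. In LZ the retrogene was above its parent in 7, 7 and 9 of 10 pairs, and in all PD and RS libraries in 10 of 10. These orders, and the shares and sums of a pair, rest on the exon lengths used. In the de novo table LZ means were 21.4 RPKM for Cstf2 and 16.6 for Cstf2t, against 11.1 and 20.9 here. For Rpl39 and Rpl39l they were 24.6 and 10.5, against 12.8 and 96.1. The LZ order of Prps1 and Prps1l1 also turned. That of Cetn1, G6pd2, Utp14b, Rbmxl2 and Tktl2 with their parents did not, and Pdha1 and Rpl10 had no match. The log2 ratio, with 0.01 RPKM added to both genes, rose from LZ to PD in all 10 pairs without overlap, by 4.40 (G6pd2) to 11.1 (Cetn1), with a median of 8.32. That median was 3.86 with a pseudocount of 1 RPKM and 5.40 under quantile normalization. With 3 libraries against 3 the exact two-sided permutation test cannot give a p under 0.10, and every pair reached that value (0.10 also after adjustment over the 10 pairs). From PD to RS the ratio was lower without overlap in 7 pairs, higher in 1 (G6pd2, by 2.01 ± 0.69 SE) and overlapped in Pdha2 and Rpl39l, with a median change of -3.42, or -0.81 with a pseudocount of 1 RPKM and -2.09 under quantile normalization. From RS to EES it was lower in 7, higher in 2 (G6pd2 and Rbmxl2) and overlapped in Rpl39l, with a median of -2.03 (-3.63 under quantile normalization), and the smallest adjusted exact p was 0.111. From EES to LES 3 pairs were lower and 7 overlapped. No share over other pairs of an autosomal and an X-linked gene was computed for these counts without overlap. Of the tested X-linked genes as a whole, 84.6% fell from LZ to PD.

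**Figure D3:**
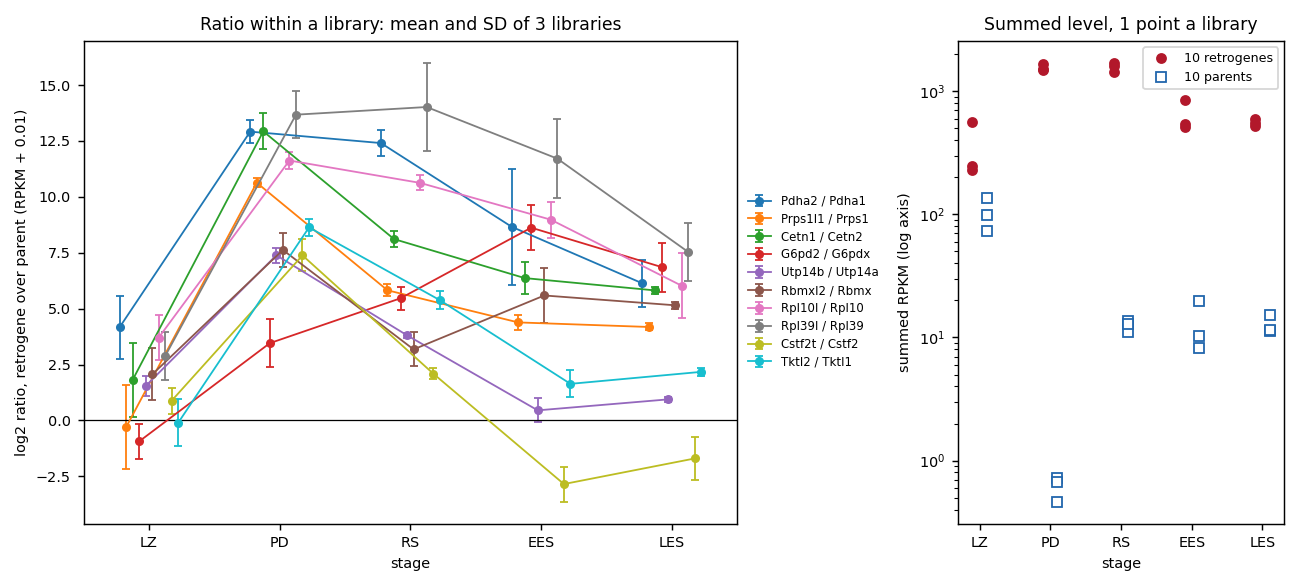
Left, log2 ratio of retrogene to parent RPKM (0.01 added to each) by stage, mean and SD of 3 libraries for each of the 10 pairs; right, RPKM summed over the 10 retrogenes (filled circles) and the 10 parents (open squares) in each library, on a log axis. All 10 ratios are above 0 in PD and RS, and the Cstf2t ratio is below 0 in EES and LES.

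Summed over all 10 genes, the retrogenes gave 247, 230 and 565 RPKM in the LZ libraries and the parents 135, 98.3 and 73.1. In PD the retrogenes summed to 1668, 1491 and 1523 RPKM and the parents to 0.464, 0.720 and 0.671. The LZ replicate with the most PD marker signal thus had the highest retrogene sum and the lowest parent sum of its group. The retrogene sum was 1706, 1603 and 1436 in RS, 509, 849 and 547 in EES and 600, 524 and 550 in LES, and the parent sum stayed between 8.18 and 19.8 in these 9 libraries. EES replicate 2, which held the most RS marker signal of its group, had the highest sum of both.

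For comparison, 14 other autosomal retrogenes with X-linked parents were chosen by name, with 8 rising and 2 falling from LZ to PD (Ubl4b and Chml). The shares over all tested genes were 25.5% and 35.8%. Their 10 tested parents, of which Rbmx is 1, all fell at that step, but 8 of them (all but Pgk1 and Ubl4a) passed the filter only with their LZ libraries, so this count supports nothing. Gk2, a glycerol kinase, rose from 34.8 ± 30.7 to 573 ± 52.0 RPKM (SD, n = 3) and Nkapl from 8.997 ± 9.34 to 127 ± 16.9. In EES, against RS, 3 rose and 7 fell, where 15.8% and 54.9% of all tested genes did, and Ubl4b went from 11.5 ± 3.17 to 578 ± 208 RPKM. No difference between these 14 and the 10 members was tested.

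**Figure D4:**
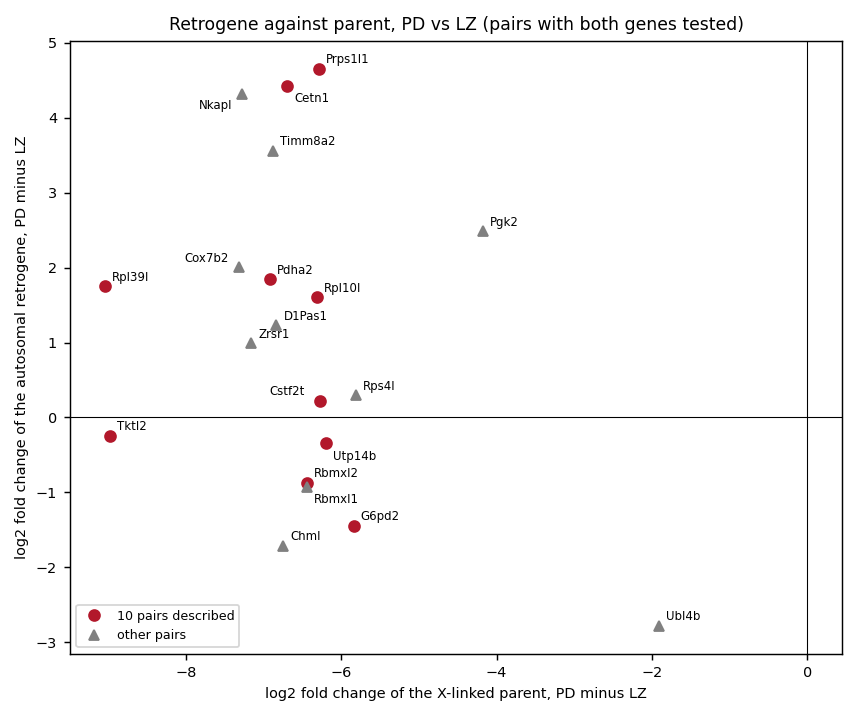
Log2 fold change of each autosomal retrogene (vertical) against that of its X-linked parent (horizontal), PD minus LZ, for the 10 pairs described (circles) and the other pairs in which both genes were tested (triangles). All parents lie left of 0, while the retrogenes spread from -2.78 (Ubl4b) to 4.66 (Prps1l1).

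Among themselves the members followed more than 1 course over the 15 libraries. These correlations of log2 levels describe genes that share libraries and stages, and carry no test. Utp14b, Cstf2t and Tktl2 moved together, with Pearson r of 0.95 to 0.98 between them. Cetn1 and Rpl39l had an r of 0.92, and Pdha2 and Rpl10l of 0.94. G6pd2 ran against Cstf2t (r = -0.88), Tktl2 (r = -0.84) and Utp14b (r = -0.76). The single tested gene most like each member was Wfdc15a for Pdha2 (r = 0.990), Ovol2 for Prps1l1 (0.997), Dnali1 for Cetn1 (0.997), Bbs5 for G6pd2 (0.997) and Qrsl1 for Utp14b (0.995). For the rest it was Rbm42 for Rbmxl2 (0.954), Arfgap3 for Rpl10l (0.992), Zc3h10 for Rpl39l (0.977), Sdhd for Cstf2t (0.999) and Chtop for Tktl2 (0.996). From 2 tested genes (Rbmxl2) to 1693 (Tktl2) had an r above 0.95 with a member, so for most members the nearest gene was 1 of many.

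The promoters of Cstf2t and Tktl2, which moved together, and of G6pd2, which ran against them, are shown next. They are the 250 bases before the annotated start from RefSeq (GRCm38.p6), with matches to any of 4 motifs in capitals. The GENCODE start of G6pd2, chr5:61808816, lies inside its window, and its de novo transcripts have 2 to 3 exons. Where the transcripts start in these cells was not tested. The motifs searched on both strands were the MYB core CAACNG, the cAMP response element TGACGTCA, the X-box half-site GTTGCC and the TATA box TATAAA. The Cstf2t sequence is chr19:31082591-31082840, the Tktl2 sequence chr8:66511490-66511739 and the G6pd2 sequence chr5:61808593-61808842, all on the plus strand.
Cstf2t: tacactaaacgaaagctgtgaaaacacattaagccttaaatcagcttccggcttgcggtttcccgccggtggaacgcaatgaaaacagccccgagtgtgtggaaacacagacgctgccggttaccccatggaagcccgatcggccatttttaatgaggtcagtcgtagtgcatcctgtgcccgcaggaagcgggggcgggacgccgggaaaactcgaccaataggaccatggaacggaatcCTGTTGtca
Tktl2: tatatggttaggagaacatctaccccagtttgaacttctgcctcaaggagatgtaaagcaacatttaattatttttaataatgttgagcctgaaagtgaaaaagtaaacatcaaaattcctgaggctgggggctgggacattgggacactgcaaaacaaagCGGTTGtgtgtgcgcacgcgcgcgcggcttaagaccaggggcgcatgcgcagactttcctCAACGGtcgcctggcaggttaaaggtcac
G6pd2: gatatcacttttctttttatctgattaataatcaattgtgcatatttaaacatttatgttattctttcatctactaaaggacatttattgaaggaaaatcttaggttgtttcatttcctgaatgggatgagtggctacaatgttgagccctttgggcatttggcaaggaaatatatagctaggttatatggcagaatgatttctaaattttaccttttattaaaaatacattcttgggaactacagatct
In these windows Cstf2t held 1 MYB core and 19 CpG dinucleotides, Tktl2 held 2 MYB cores and 11 CpG, and G6pd2 held no match and 0 CpG. The RefSeq promoter table, with 300 bases a promoter (250 before and 50 after the start), held 8 of the 10 members, all but Prps1l1 and Cetn1, and all 10 parents. The MYB core was in 2 of the 8 (Cstf2t and Tktl2) and in 35.0% of all 32851 promoters of that length. Utp14b, which moved with Cstf2t and Tktl2 but is not printed, held no match to any of the 4 motifs. The X-box half-site was in 1 of the 8 (G6pd2, after the start) and in 12.5% of all, the TATA box in 1 (Pdha2) and in 13.6%, and the cAMP response element in none and in 1.79%. CpG counts over the 300 bases ranged from 1 (G6pd2) to 40 (Utp14b), with a median of 15.5, against 17.5 for the parents and 7 for all promoters. The reverse complement of the MYB core ends in GTTG and can overlap the X-box half-site. These matches describe letters in a window only.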

How the data were processed

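Gene levels were deposited by the authors as log2 values of 100 times RPKM plus 1 (a pseudocount of 0.01 RPKM), in one table of 24594 annotated genes, keyed by NCBI Gene ID, and another of 27289 de novo genes, and the scale was read from the values. The deposited de novo transcriptome, with transcript positions, was assembled with StringTie 1.3.4d, per the file headers. Trim Galore, STAR and the builds GRCm38 and mm10 are named in the submitters' processing notes; the counting program, its strand setting and its treatment of reads with several matches were not given in the sources used here. Of the gene IDs, 24570 matched RefSeq. Values turned back into reads were whole to within 0.01 for all de novo genes, and gave the depth of 90553570 to 137849519 reads in the 15 libraries. Reads are given to show this depth, and counting error limits the levels of parents with few reads.

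Genes with at least 1 RPKM in 3 of the 15 libraries (13260) were fitted with limma 3.58.1 (R 4.3.3) on the deposited log2 values, with stage as the one factor, a trend of the variance with the mean level and Benjamini-Hochberg adjustment over all tested genes. A call needed an adjusted p under 0.05 and a change of at least 1. The fit was tested on simulated data. Ratios of retrogene to parent were compared by exact permutation tests, adjusted over 10 pairs. All figures after ± in fold changes are SE. Named genes were the members, parents and Tkt, up to 2 largest rises and falls of each list in a comparison, the gene most like each member, and stage markers. A gene of the ribosomal protein list that this rule names is not reported here. Rps4x in LES, a member of the comparison pairs, was singled out after its values were seen. The members and lists were chosen with earlier results of these data known. Alternatives covered scaling, pseudocount, filter, table, replicate block and left-out libraries. Whether replicate numbers pair the samples is not known, and the fit did not pair them. The correlation of deviations between same-numbered libraries was 0.034, 0.131 and 0.122 for LZ and PD, against -0.162 to 0.105 between differently numbered ones. For PD and RS these values were 0.108, 0.025 and 0.242, against -0.191 to 0.068. For RS and EES they were -0.119, -0.059 and 0.03, against -0.07 to 0.116. For EES and LES they were 0.003, -0.252 and 0.016, against -0.288 to 0.314. These values do not settle whether the samples were paired.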

Additional observations from a re-analysis of the deposited data

How the results depend on the processing

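Counting a change of sign only where a call was made, 4 values for single genes reversed, and all counts of retrogenes called from RS to EES and from EES to LES stayed within 1.5 times. These were G6pd2 from LZ to PD under quantile normalization (0.25), Rpl39l from RS to EES under median centring (0.41) and Tktl1 from RS to EES under median centring (1.22) and quantile normalization (1.29). From LZ to PD 5 retrogenes rose, and 2 under quantile normalization. The count that fell there was 1, but 0 under median centring or with a pseudocount of 1 RPKM and 2 under quantile normalization or when scaled to reads in genes. Without LZ replicate 3 and EES replicate 2 fewer parents passed the filter: 6 of 6 tested fell from LZ to PD and 6 differed among stages, while 4 rose from PD to RS, as 4 did with a pseudocount of 1 RPKM. The count of parents rising from RS to EES was 1, but 5 under median centring, 4 under quantile normalization and 0 with the de novo table, no filter, a pseudocount of 1 RPKM or scaling to reads in genes, and 0 to 2 with 1 library left out. The count of 2 that fell became 1 under median centring, quantile normalization and a pseudocount of 1 RPKM. From EES to LES 1 parent (Rpl10) rose with no filter, and 0 to 1 with 1 library left out. The median change in the log2 ratio from LZ to PD, 8.32, was 3.86 with a pseudocount of 1 RPKM, 5.40 under quantile normalization and 7.59 with the de novo table. From PD to RS the same settings gave -0.81, -2.09 and -4.41 in place of -3.42. From RS to EES it was -2.03, but -3.63 under quantile normalization, -2.43 without both libraries and -2.58 to -1.55 with 1 library left out, and from EES to LES it was -0.50, but -0.077 with the de novo table. The cause was not tested, except that a pseudocount of 1 RPKM compresses low levels by construction. The de novo table held matches for 8 of the 10 parents, and its Utp14b and Rbmxl2 loci also cover exons of Acsl3 and Platr28.

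The main fit did not pair samples by replicate number. A replicate block left the counts of retrogenes called as they were, with 5 rising and 1 falling from LZ to PD and 1 rising and 7 falling from RS to EES. It changed no other call of a member or parent. The planned edgeR and DESeq2 fits on recovered reads were not run. Low read numbers limit the parents in PD, where Pdha1 had 10 reads and Rpl39 had 9 over 3 libraries.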

Other observations

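The single libraries outside the comparisons gave further values, with no replicate to set them against. In the library of round spermatids titled as juvenile, 23 days post partum, which its label field for age gives as 3 months, all 10 retrogenes were above their parents. The 10 retrogenes summed to 1410.0 RPKM and the parents to 17.5, and Cetn1 was at 288 RPKM, below the 474 to 632 of the adult RS libraries, while Rpl10l, at 368 RPKM, was above their 232 to 302. G6pd2 was at 5.54 RPKM there, against 4.08 to 5.47 in RS. In the library of Prm1-EGFP sorted elongating spermatids the retrogenes summed to 646 RPKM and the parents to 21.6, and 9 of 10 retrogenes were above their parents. The exception was Cstf2t, at 1.61 RPKM against 8.02 for Cstf2, the same order as in all EES and LES libraries. G6pd2 was at 14.6 RPKM in it, below the 20.3 to 34.7 of EES, and Cetn2 at 8.95 RPKM was above the 2.36 to 4.35 of EES. That library held a summed 41.7 RPKM of the 11 Sertoli markers, and their part in its values was not tested.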
